A study of Mus musculus with 88 samples.

Results

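The ISG15 conjugation enzymes and 4 interferon-inducible ligases were followed as proteins in mouse dendritic cells after lipopolysaccharide (LPS), the wall component of Gram-negative bacteria. The members were the modifier Isg15, its activating enzyme Uba7, its conjugating enzyme Ube2l6, the ligases Herc6 and Trim25, the protease Usp18, and the ligases Trim21, Trim30a and Rnf213. A protein group was taken as a member when the first gene name the authors' table gives it was one of these symbols. All 9 were in the table, each as 1 protein group, of 5899 groups kept. The rule that picks the groups uses gene names alone. The list of names was chosen with earlier results of these data known.

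Dendritic cells were grown with GM-CSF from bone marrow of female C57BL/6J mice; the age of the mice is not given in the labels. All cells carried medium-heavy arginine and lysine (the M form), were pooled, were moved to heavy amino acids (the H form) at 0 h, and then received LPS at 100 ng/ml or no stimulus (mock). M thus marks protein made before 0 h and H protein made after it, and an unlabelled culture (L) served as reference in every run. Of 88 samples, 84 were the M and H forms of 42 trypsin runs, in 21 groups of 2 replicates: 0 h, and mock and LPS at 10 times, namely hourly from 1 to 6 h and also at 0.5, 9, 12 and 24 h. The remaining samples were baseline digests, 2 with AspN and 2 with LysN. The protocol text speaks of harvests up to 12 h, and the handling of the 24 h samples is not stated there. Nothing in the labels makes the replicates separate cultures; the p-values therefore rest on a spread that may be technical.

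ISG15 is a ubiquitin-like protein that is joined to other proteins by a cascade of its own: UBA7 activates it, UBE2L6 carries it, and ligases such as mouse HERC6 (in human cells, HERC5) attach it, while USP18 removes it. The genes of this cascade are classical targets of type I interferon, which dendritic cells release after LPS. TRIM25 is a RING ligase known for its part in RIG-I signalling, TRIM21 is a cytosolic antibody receptor with ligase activity, TRIM30a is a mouse TRIM protein reported to restrain NF-kB signalling, and RNF213 is a very large ligase with an ATPase core that acts on bacteria inside cells.

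The promoter windows of the members were searched for the core of the interferon-stimulated response element, since the members are compared as a set of interferon-inducible proteins. RefSeq windows (GRCm38.p6, 250 bases before to 50 after the gene start) were found for 8 of the 9 members. The letters GAAANNGAAA, searched on both strands and counted with overlaps, was present in 3 of the 8: Isg15 (3 overlapping matches), Trim21 (2 overlapping matches) and Trim30a (1 match in the first of its 2 listed windows and 1 in the second). Of all 32851 windows, 3.44% held it. A stretch around the matches follows, read 5′ to 3′ on the gene's strand, with the matches in capitals.
Isg15, chr4:156200856-156200915, minus strand: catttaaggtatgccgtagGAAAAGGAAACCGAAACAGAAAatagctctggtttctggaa
Trim21, chr7:102565447-102565476, minus strand: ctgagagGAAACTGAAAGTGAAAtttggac
Trim30a, chr7:104465195-104465254, minus strand: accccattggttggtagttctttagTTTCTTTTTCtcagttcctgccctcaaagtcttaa
The Isg15 matches lay from base -78 to base -57 before the start, the Trim30a match from base -36 to base -27, and the Trim21 matches from base 14 to base 29 of the transcribed part. The windows of Uba7, Ube2l6, Herc6, Trim25 and Rnf213 held no match to these letters.

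Runs held 64703 to 91015 H/L peptide pairs, and H/L ratios for 3538 to 4082 protein groups. H/L and M/L were scaled per run: each was divided by the run's typical sum of both ratios, taken as a median across 2628 groups seen in all runs. The log2 of this run factor was -0.68 to 0.69, and the LPS 12 h replicate 2 run had the highest. H/L at 0 h, when no heavy protein could exist, had a median of 0.135 after scaling. This is background signal, and single ratios lay both above and below it. It was not subtracted in the main fits, so it also enters M/L plus H/L and H over M. At 0 h, 7 of 9 dendritic and myeloid markers had an M/L ratio (Cd209a and Flt3 did not), as did 10 of 13 macrophage markers, 10 of 11 granulocyte markers, 2 of 8 erythroid and platelet markers and 0 of 9 lymphocyte markers. Over 6, 9 and 12 h the total level of 6 of 8 tested macrophage markers and 4 of 7 tested granulocyte markers fell with LPS by limma and 1 of each list rose. Of 6 tested dendritic and myeloid markers 1 rose (Ptprc) and 0 fell, and of 2 tested erythroid and platelet markers 1 fell. The background was 19.2% called among all groups (9.98% higher). The summed iBAQ of the macrophage and granulocyte lists overlapped between arms (macrophage 6001 to 10871 ppm of the run's iBAQ sum with LPS and 8788 to 12208 with mock, granulocyte 29856 to 51682 and 26084 to 49175). The lymphocyte markers were at 0 in all 12 of these runs. The part of these cells in the members' changes was not tested. In a bulk lysate, fewer cells of a type and less protein per cell cannot be told apart.

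Newly made protein of 4 members rose late after LPS. Over 6, 9 and 12 h (6 LPS against 6 mock samples), 6 members could be tested, and H/L was higher with LPS for 4 of them: Rnf213, Trim30a, Ube2l6 and Trim25, at 4.0-, 3.8-, 3.1- and 1.7-fold. Isg15 and Uba7 did not pass, and Trim21, Herc6 and Usp18 had too few ratios for this test. The background was 12.1% called among 3316 protein groups tested (10.4% called higher), with limma and Benjamini-Hochberg adjusted p under 0.05. The median log2 change was 1.33 over the 6 members and 0.03 over all groups. Among all tested groups ordered from the largest rise, Rnf213 stood at 53, Trim30a at 56, Ube2l6 at 96, Uba7 at 211, Trim25 at 359 and Isg15 at 365. Over 1, 2 and 3 h limma called 0 of 6 tested members in H/L (0 at an unadjusted p under 0.05), against 0.475% of all groups.

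**Figure D1:**
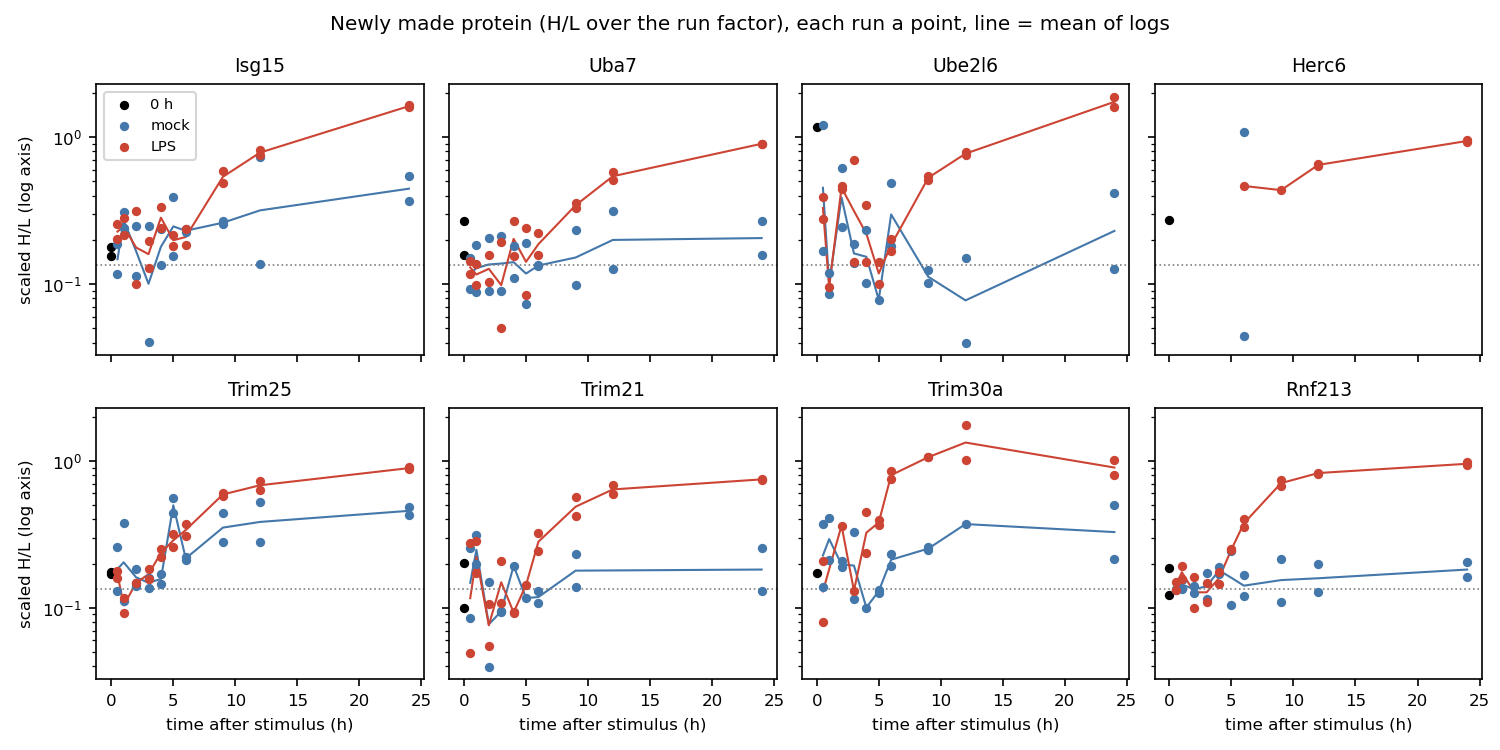
Newly made protein of 8 members (scaled H/L, log axis) against hours after the stimulus; points are single runs, lines join the means of the logs of the 2 replicates, and the dotted line is the median H/L of all proteins at 0 h (0.135). Most values up to 4 h lie near the dotted line in both arms, and at 24 h every LPS point lies above every mock point in the 7 panels that have both.

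Isg15, the modifier itself, was measured in all 42 runs with 3 to 14 H/L pairs. Its scaled H/L was 0.237 and 0.184 at 6 h LPS against 0.236 and 0.225 in mock, 0.487 and 0.593 against 0.269 and 0.254 at 9 h, and 0.758 and 0.814 against 0.731 and 0.138 at 12 h. At 24 h it was 1.65 and 1.61 with LPS against 0.542 and 0.367 with mock. The arms were alike at 6 h and separate at 9 and 24 h, and at 12 h 1 mock value of 0.731 came close to the LPS values. The late change in H/L was 0.73 ± 0.40 (log2, SE) with a limma adjusted p of 0.342. In 12 fits that each left out 1 late run it ran from 0.33 to 1.14. The highest was the fit without the mock 12 h replicate 1 run. At 24 h the change was 1.87 ± 0.69 with an adjusted p of 0.0971. Total Isg15, the sum of both forms, rose at 24 h by 1.50 ± 0.40 (2.83-fold, limma adjusted p = 0.00504). This sum holds the background in H: at 0 h mean H/L of Isg15 was 0.167 and mean M/L 0.128. Over 6 to 12 h the total changed by 0.44 ± 0.23 (limma adjusted p = 0.230). In the 12 fits without 1 late run it changed by 0.15 to 0.73, the highest again without the mock 12 h replicate 1 run. A ratio of this kind counts free and conjugated ISG15 together.

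Uba7, the E1 enzyme that loads ISG15, had 9 to 31 H/L pairs per run and a ratio in all 42. Late H/L ran from 0.0993 through a median of 0.134 to 0.314 in mock, and from 0.157 through 0.344 to 0.578 with LPS. The ranges overlapped, although at each of the 3 times both LPS values lay above both mock values. The late change was 1.04 ± 0.38 and did not pass (limma adjusted p = 0.0855). In 12 fits that each left out 1 late run it ran from 0.82 to 1.25. It was 1.24 and 1.25 without the mock 9 h and the mock 12 h run of replicate 1. It passed in 4 of 25 alternatives, of which 1 was the fit without the run factor (1.20, limma adjusted p = 0.00994), and 21 left it not passing. By 24 h H/L was 0.900 and 0.904 with LPS against 0.270 and 0.157, a rise of 2.13 ± 0.65 that passed (4.39-fold, limma adjusted p = 0.0375). Its M/L, the enzyme made before the stimulus, stayed between 0.318 and 0.419 in every LPS run and between 0.313 and 0.416 in every mock run, and total Uba7 rose late by 0.41 ± 0.14 (limma adjusted p = 0.0400). That late call is close to the threshold: it ended in 9 of 12 fits that each left out 1 late run, with adjusted p from 0.0516 to 0.156 in those 9.

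Ube2l6, the E2 that hands ISG15 to ligases, was measured with 0 to 6 H/L pairs a run and had ratios in 39 runs. Its H/L at 6 h was 0.204 and 0.167 with LPS against 0.488 and 0.182, so the arms overlapped. At 9 h it was 0.513 and 0.548 against 0.101 and 0.124, at 12 h 0.754 and 0.792 against 0.0397 and 0.151, and at 24 h 1.61 and 1.88 against 0.126 and 0.420. From 9 h on, both LPS values lay above both mock values at each time. The only 0 h value, 1.17 from 3 pairs, was above every mock value after 0.5 h. It was also above every LPS value up to 12 h, so the late LPS values did not exceed the background measured for this protein. At 12 h the mock values lay on either side of 0.135, the 0 h median of all groups. The late change was 1.62 ± 0.49 (limma adjusted p = 0.0309), and it reached 3.32 ± 0.85 at 12 h (limma adjusted p = 0.0147), where each mock value rested on 2 pairs. This call ended in 10 of 12 fits that left out 1 late run (adjusted p 0.0536 to 0.133 and changes of 1.30 to 1.67 in those 10).

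Herc6, the HECT ligase that attaches ISG15 in mouse cells, gave an H/L ratio in 9 of 42 runs and, with 2 late mock values, was under the minimum of 4 per arm set for the test. Of these 6 were LPS runs from 6 h on, with H/L of 0.466 at 6 h, 0.436 at 9 h, 0.662 and 0.634 at 12 h, and 0.933 and 0.952 at 24 h. Mock gave 2 values, 1.08 and 0.0446, both at 6 h, and 0 h gave 1. At 12 and 24 h a ratio was thus present in both LPS replicates and in neither mock replicate. Its heavy form had an intensity above 0 in 15 of 20 LPS runs and 9 of 20 mock runs.

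Usp18, the protease that takes ISG15 off its targets, had no ratio in any run. Its heavy form was seen in 3 LPS runs, with summed intensities of 4520600 (6 h, replicate 2), 12915000 (12 h, replicate 2) and 2292700 (24 h, replicate 1), and was listed at 0 in every mock and 0 h run. The medium form was listed at 0 in all 42 runs. The light reference form was seen in 13 runs, of which 8 were LPS and 4 mock. Detection in the reference thus also differed between arms, and no fold is given.

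Trim25, the RING ligase of RIG-I signalling, was the one tested member whose pre-existing protein was called lower with LPS over 6 to 12 h. It was measured in all 42 runs with 8 to 38 M/L pairs. Its scaled M/L was 0.972 and 1.01 at 0 h. In mock it was 0.792 and 0.868 at 6 h, 0.671 and 0.801 at 9 h, 0.671 and 0.637 at 12 h, and 0.479 and 0.542 at 24 h. With LPS it was 0.571 and 0.656, then 0.423 and 0.450, then 0.390 and 0.411, and 0.273 and 0.218 at the same times. The arms did not overlap at any of these 4 times. Over 6 to 12 h pre-existing Trim25 was lower with LPS by a log2 change of -0.63 ± 0.06 (0.65-fold, limma adjusted p = 2.15e-07), which was 1 of 6 tested members called, against a background of 16.5% called (13.3% lower). The difference was -1.06 ± 0.11 at 24 h (limma adjusted p = 7.59e-08), lower than over 6 to 12 h by a change of -0.43 ± 0.13 (adjusted p = 0.0225, background 16.6% called).

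As a rate, log2 M/L of Trim25 changed by -0.0443 ± 0.0067 per hour in mock and by -0.110 ± 0.0067 per hour with LPS between 0.5 and 12 h. These slopes correspond to half-times of 22.6 h and 9.13 h, with no correction for cell growth. The difference of -0.0653 ± 0.0095 per hour passed (limma adjusted p = 5.70e-06), and the background was 19.1% called (14.5% steeper with LPS) among 3531 groups. The median slope of all groups was -0.00918 in mock and -0.0138 with LPS, and 2.12% of groups were lost faster than Trim25 after LPS. Of 7 members tested for this, the 6 others did not pass, with adjusted p between 0.258 and 0.933. Uba7 and Rnf213 had the tightest of those values: slopes differed by -0.0045 ± 0.0098 and 0.0017 ± 0.0094 per hour. When the M share of M plus H took the place of M/L, a quantity that by construction also falls as new protein is added, 6 of 7 members passed: Trim25, and also Rnf213 (-0.164 per hour, limma adjusted p = 7.36e-11), Uba7 (-0.0684, adjusted p = 3.94e-04), Trim21 (-0.112, adjusted p = 9.99e-04), Ube2l6 (-0.178, adjusted p = 0.0283) and Trim30a (-0.129, adjusted p = 0.0407). For Rnf213 and Trim30a this turned the sign. With the M share 453 protein groups were called in all, against 674 with M/L. The slope difference of Trim25 and its late drop in M/L passed in every alternative except leaving out the run factor, where they were -0.0337 per hour and -0.47 with adjusted p of 0.633 and 0.942.

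**Figure D2:**
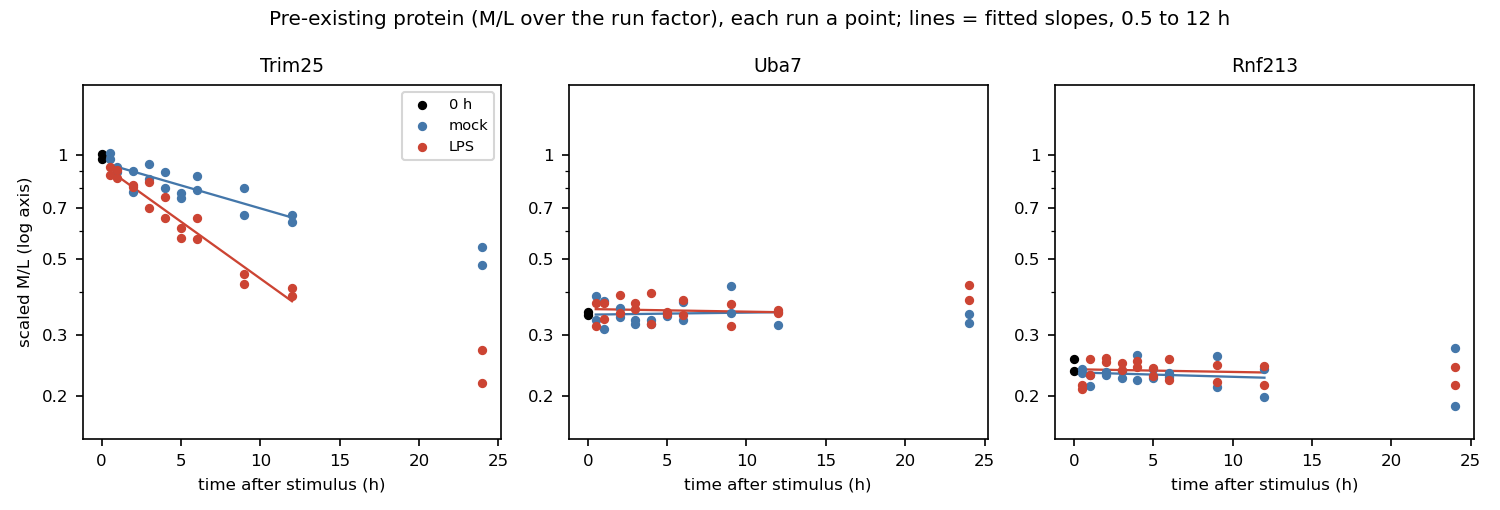
Pre-existing protein (scaled M/L, log axis) of Trim25, Uba7 and Rnf213 against hours after the stimulus; points are single runs and lines are the fitted slopes from 0.5 to 12 h in each arm. Trim25 falls in both arms and faster with LPS, while Uba7 stays between 0.313 and 0.419 and Rnf213 between 0.187 and 0.275 in all runs after 0 h.

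New Trim25 was made at the same time. Late H/L ran from 0.307 through a median of 0.591 to 0.732 with LPS and from 0.211 through 0.280 to 0.528 in mock. The ranges overlapped, although at each of the 3 times both LPS values lay above both mock values. The LPS effect was higher late than over 1, 2 and 3 h by 1.04 ± 0.32 (limma adjusted p = 0.0495). Part of this lies in the early times: at 1 h the difference was -0.98, with mean H/L of 0.243 in mock (SD 0.187) and 0.104 with LPS. The late change was 0.74 ± 0.22 (limma adjusted p = 0.0284). This call is close to the threshold and ended in 8 of 12 fits without 1 late run (adjusted p 0.0537 to 0.136 in those 8). Total Trim25 did not pass: it ran from 0.943 to 1.14 with LPS and from 0.917 to 1.24 in mock, a change of -0.06 ± 0.07 (limma adjusted p = 0.708). The single earlier exception was 5 h, where total Trim25 was lower with LPS by a log2 change of -0.52 (limma adjusted p = 0.0418, background 1.24% called). Mean mock H/L was 0.502 at 5 h, against 0.158 at 4 h and 0.217 at 6 h. With LPS it was 0.289 at 5 h, so new Trim25 was higher in mock at that time.

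Trim21 had no mock ratio at 12 h, so its late change could not be estimated. Its H/L was 0.325 and 0.245 at 6 h LPS against 0.130 and 0.108, 0.565 and 0.421 at 9 h against 0.232 and 0.138, and 0.754 and 0.742 at 24 h against 0.254 and 0.131. At each of these times both LPS values lay above both mock values. Over 6 and 9 h the change in H/L was 1.35 ± 0.50 and did not pass (limma adjusted p = 0.142, background 7.69% called), while H/M, the new over the old form within a run, rose by 1.93 ± 0.52 (limma adjusted p = 0.0237, background 7.06% called). This window was chosen after the missing values were seen. Mean M/L of Trim21 in mock was 0.869 at 9 h (SD 0.754) and 0.625 at 24 h (SD 0.551), against 0.428 at 0 h (SD 0.144). With LPS it was 0.422 at 9 h (SD 0.290) and 0.316 at 24 h (SD 0.0149), but 0.706 at 3 h (SD 0.632). A high M form lowers H/M, and the part of these mock values in the H/M rise was not tested.

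Trim30a, the mouse TRIM protein linked to NF-kB, had the highest late median of H/L among the members. Its H/L was 0.749 and 0.854 at 6 h LPS against 0.194 and 0.233, 1.06 and 1.07 at 9 h against 0.260 and 0.246, 1.02 and 1.74 at 12 h against a single mock value of 0.371, and 0.806 and 1.01 at 24 h against 0.497 and 0.216. No LPS value in the late window came near the mock values. The late change was 1.94 ± 0.35 (limma adjusted p = 6.51e-04), total Trim30a rose by 1.41 ± 0.19 (2.66-fold, adjusted p = 2.07e-05), and both calls stood in the 11 fits that left out 1 late run and could test it. Without replicate 2 throughout, neither passed (adjusted p = 0.124 for each). Its ratios rested on 0 to 7 H/L pairs, and 16 of its 17 peptides were unique to it among the proteins of this close gene family.

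At 24 h Trim30a looked different: scaled M/L was 0.722 and 0.854 in mock, each from 2 pairs, against 0.256 and 0.252 with LPS. Earlier mock runs reached at most 0.327. Medium label can no longer be taken up from the medium after 0 h, and the cause of the high mock values was not tested. The difference at 24 h was -1.63 ± 0.44 (limma adjusted p = 0.00570, background 37% called in pre-existing protein), and total Trim30a differed by 0.02 ± 0.30 at that time (limma adjusted p = 0.976). The 24 h change in total protein was lower than the late change (-1.39 ± 0.35, limma adjusted p = 0.0131, background 16% called).

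Rnf213 was the best measured member, with 70 to 165 H/L pairs in each of 42 runs. Its H/L in mock stayed between 0.104 and 0.245 after 0 h. With LPS it was 0.252 and 0.249 at 5 h, 0.353 and 0.400 at 6 h, 0.675 and 0.737 at 9 h, 0.820 and 0.833 at 12 h, and 0.980 and 0.932 at 24 h. From 5 h on every LPS value was above every mock value. The late change was 1.99 ± 0.20 (limma adjusted p = 6.84e-08), and it exceeded the early change by 1.97 ± 0.29 (adjusted p = 4.53e-05, background 6.49% called). Pre-existing Rnf213 did not pass, with a late change of 0.04 ± 0.08 (adjusted p = 0.842), and the total rose 2.23-fold (1.15 ± 0.10, adjusted p = 9.28e-09).

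The H/M ratio of Rnf213 needs no reference or run factor. Background in H was not taken out of it: at 0 h it averaged 0.501, against a median of 0.157 over all groups. It ran from 0.418 to 0.858 in mock over all times, and from 0.361 to 0.644 with LPS up to 4 h. It then was 1.07 and 1.06 at 5 h, 1.68 and 1.68 at 6 h, 3.34 and 3.27 at 9 h, 3.88 and 4.00 at 12 h, and 4.08 and 4.35 at 24 h. Its rise was 0.90 at 5 h (limma adjusted p = 0.0386, background 1.44% called), the first time at which any member passed in H/M, and 2.59 at 12 h (adjusted p = 2.64e-08, background 7.66% called).

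Every LPS value of H/L over 6 to 12 h was above every mock value for 3 members, Trim21 (4 mock values), Trim30a (5 mock values) and Rnf213; this held for 5.37% of all groups. At 24 h it held for all 7 members with ratios in both arms, and for 36.8% of all groups.

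**Figure D3:**
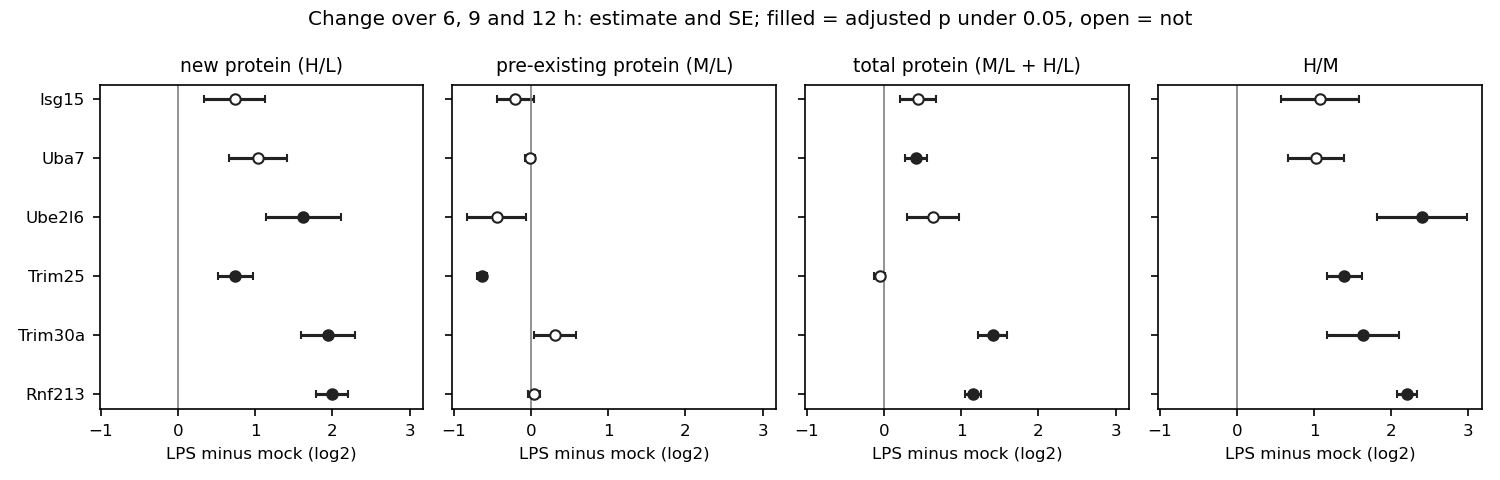
LPS minus mock over 6, 9 and 12 h (log2, estimate and SE) for the 6 testable members in new, pre-existing and total protein and in H/M; filled circles passed at an adjusted p under 0.05. New protein and H/M lie above 0 for all 6, pre-existing protein is called only for Trim25 (-0.63), and total protein is called for Uba7, Trim30a and Rnf213.

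Across the 4 measures the members thus fell into different patterns. For total protein late, 3 of 6 tested members rose (Uba7, Trim30a, Rnf213; background 19.2% called, 9.98% higher). For H/M late, 4 of 6 rose (background 12% called, 11.1% higher): Ube2l6 by 2.40 ± 0.59, Rnf213 by 2.21 ± 0.13, Trim30a by 1.63 ± 0.47 and Trim25 by 1.39 ± 0.22, with limma adjusted p of 0.00699, 8.46e-12, 0.0257 and 5.92e-05. H/M of Isg15 and Uba7 changed by 1.08 ± 0.50 and 1.02 ± 0.36 and did not pass (limma adjusted p 0.231 and 0.0743). The H/M call of Trim30a ended in 5 of 11 fits without 1 late run, with adjusted p from 0.0537 to 0.0848.

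By single times, each with 2 against 2 samples, H/L passed first for Rnf213 at 6 h (1.41, limma adjusted p = 0.0234, background 2.8% called). Trim30a joined at 9 h (2.07, adjusted p = 0.0366, background 5.89%), Ube2l6 at 12 h (background 7.82%) and Uba7 at 24 h. At 24 h 3 of 7 tested members passed in H/L (background 9.53%). Total protein at 24 h rose for 4 of 7 (background 37%): Ube2l6 by 2.40 ± 0.58, Rnf213 by 1.53 ± 0.18, Isg15 by 1.50 ± 0.40 and Uba7 by 1.26 ± 0.24. H/M at 24 h rose for 5 of 7 (background 8.11%), namely Uba7, Trim21, Trim25, Trim30a and Rnf213. For Trim21 and Trim30a mean mock M/L at 24 h was above that at 0 h (0.625 against 0.428 and 0.788 against 0.313), which lowers mock H/M. A first time of passing follows both the size of a change and the number of pairs behind it, so the order is not an order of induction. No member's H/L effect at 24 h differed from its late effect by limma (0 of 6 called, 0 at an unadjusted p under 0.05, background 0.703% called).

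**Figure D4:**
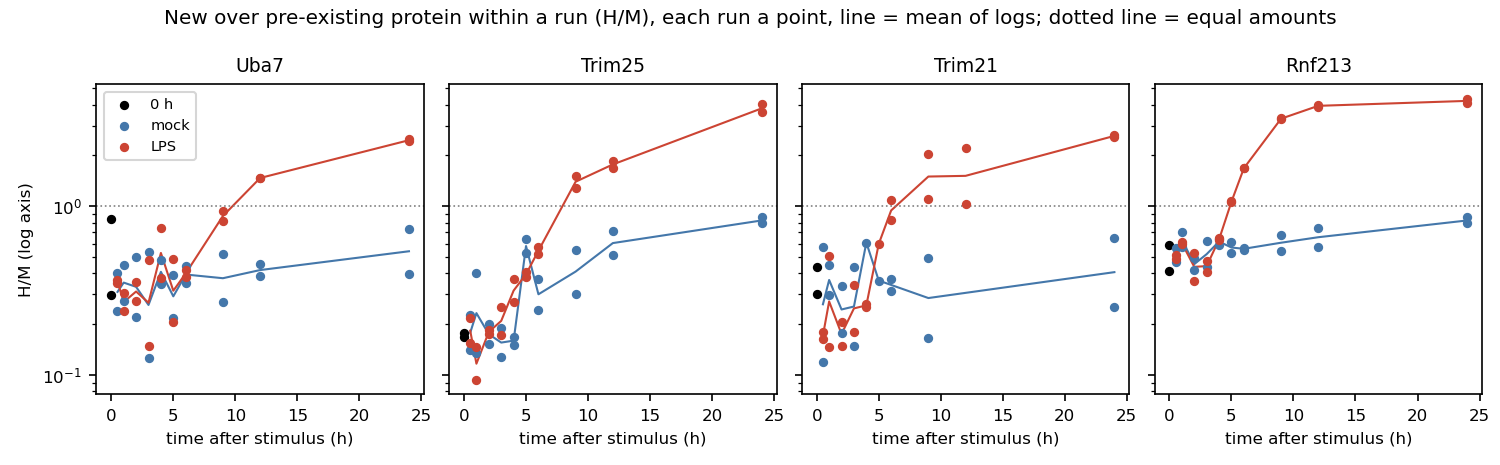
New over pre-existing protein (H/M, log axis) of Uba7, Trim25, Trim21 and Rnf213 against hours after the stimulus. Points are single runs, lines join the means of the logs, and the dotted line marks equal signal of both forms, background included. With LPS all 4 pass above 1 by 12 h, while no mock run of the 4 proteins does so up to 24 h.

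The 3 proteins most like each member in change over time are named here. They are the top of 3383 to 3516 groups compared, so high correlations follow from the selection. How many groups came near them was not counted. For each member with at least 8 shared times, the Pearson correlation of its LPS minus mock difference in H/L with that of every other group was ranked, as a description over at most 10 points that share runs and so share run effects. Rnf213 was most like Ifih1, a cytosolic sensor of double-stranded RNA (r = 0.99), Rars, an aminoacyl-tRNA synthetase (0.99), and Trex1, a DNA exonuclease (0.99). Uba7 was most like Acsl1 (0.97), Cfl1 (0.96) and Dtx3l (0.96), the last a ubiquitin ligase. Isg15 was most like Nckap1l (0.94), Psma7 (0.93) and Gch1 (0.91), Trim25 like Rbm3 (0.95), Snx18 (0.92) and Hn1 (0.90), and Trim30a like Fth1 (0.94), Fam177a1 (0.94) and Sugt1 (0.92). For Ube2l6 these were Mapre3 (0.94), Gm17352 (0.92) and Atg3 (0.92), and for Trim21 Myl6 (0.97), Hdlbp (0.95) and Cpne3 (0.94). Among the members themselves, r was highest between Uba7 and Rnf213 (0.89) and lowest between Isg15 and Trim30a (0.06).

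Levels of different proteins can be set side by side with iBAQ, an intensity per theoretical peptide, given here in ppm of the summed iBAQ of a sample. Values at 0 h are of the M form alone and those at 24 h of M plus H, so these times are not on one scale. At 0 h Trim25 was at 27.4 and 20.1, Uba7 at 19.8 and 7.96, Trim21 at 13.8 and 1.05, Isg15 at 10.5 and 2.51, Rnf213 at 9.66 and 7.15, Ube2l6 at 5.93 and 0.557, Trim30a at 0.459 and 0.324, and Herc6 at 0.0373 and 0.0245; Usp18 was listed at 0. The replicates differed most for Trim21 and Ube2l6, and the middle of this order lies within that spread. At 24 h with LPS Isg15 was the most abundant member at 272 and 193 (mock 48.9 and 2.94), followed by Uba7 at 63.5 and 86.0 (mock 15.3 and 21.9), Ube2l6 at 59.3 and 81.6 (mock 18.6 and 3.25), and Rnf213 at 59.0 and 47.0 (mock 20.9 and 25.4). Among these 3, the replicates of Ube2l6 overlapped those of Uba7, while both values of Uba7 were above both of Rnf213; the difference was not tested. Trim25 was at 35.6 and 39.4 (mock 22.7 and 24.7), Trim21 at 8.74 and 17.0 (mock 6.19 and 2.67), and Trim30a at 3.09 and 3.83 (mock 1.15 and 1.33). In the AspN and LysN baseline digests only Uba7, Trim25 and Rnf213 were detected, each in all 4 samples; Trim25 was the highest of the 3 in 3 of these samples, with 17.8, 41.3 and 49.7, and in AspN replicate 2 it was at 11.6 against 12.9 for Uba7.

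Relative to the light reference, M/L at 0 h was low for most members: 0.572% of 4544 groups were lower than Isg15, 1.50% lower than Rnf213, 2.27% lower than Trim30a, 2.75% lower than Uba7 and 4.12% lower than Trim21. Ube2l6 stood at 14.0% and Trim25 at 72.3%. A low value says that the light reference held more of the protein than the labelled cells did at 0 h. The treatment of the light cells is not stated in the labels.

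The related lists are read against 12.1% called and 10.4% called higher among all groups. Of 17 other TRIM and RBCC proteins measured, 5 could be tested, and new Trim56 rose late (1.36 ± 0.43, limma adjusted p = 0.0366). Trim14, Trim34b, Pml and Trim28 did not pass (0.74, 0.56, 0.33 and -0.20). Of 22 tested E1 and E2 enzymes of other modifiers, 2 rose: Ube2f, an E2 for NEDD8 (1.32 ± 0.39, limma adjusted p = 0.0423), and Uba1, the main E1 of ubiquitin (0.42 ± 0.11, adjusted p = 0.0101). Their list median was 0.04. Of 17 tested HECT, RBR and RING ligases 3 rose, Dtx3l (1.87 ± 0.22), Rnf114 (1.81 ± 0.25) and Trip12 (0.75 ± 0.23), and the list median was -0.02. Of 22 tested deubiquitinases 1 rose, Vcpip1 (1.24 ± 0.35), and of 8 tested modifiers 1 rose, Fau (0.87 ± 0.23), a fusion of a ubiquitin-like protein and a ribosomal protein. None of these lists had a member called lower in new protein.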

How the data were processed

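For each protein group and run, the authors deposited SILAC ratio columns for M over L, H over L and H over M, once as measured and once normalized, per the file headers. The deposited ratio count gives the peptide pairs behind a ratio. The deposited intensity values are sums of peptide intensities per form, and iBAQ is such an intensity per theoretical peptide, per the file headers. Column names are those of MaxQuant, per the file headers. No label or header states its version or settings. The build mm9 is named by the submitters' processing notes.

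Of 6266 trypsin groups, reverse (90), contaminant (97) and site-only (216) entries were dropped, some of which carried several of these marks, and 5899 stayed. Unmatched per-sample columns numbered 0. Scaled log2 H/L (new), M/L (pre-existing) and their sum (total), and unscaled H/M, were each modelled by limma 3.58.1 (R 4.3.3) with a mean for each of the 21 groups. Contrasts are LPS minus mock. A late test (6, 9 and 12 h) needed at least 4 of 6 values per arm, a test at 1 time all 2 per arm, and the loss test at least 12 of 18 per treatment. P-values were adjusted after Benjamini-Hochberg across the whole table within a comparison, and 0.05 was the threshold. Errors are SE from limma. Ratios carry no counting interval; the number of pairs limits their precision. The model was tested on simulated data. Figures used Python 3.11.15, pandas 2.3.3, numpy 2.4.6 and matplotlib 3.10.9.

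Pairing by replicate number was checked with the correlation of deviations from group means between same-numbered samples. It exceeded 0.1 for 210 of 210 pairs of groups in M/L (lowest 0.14), for 201 in total, and for 107 in H/L and in H/M. The check thus held for every pair of groups in M/L alone. No main fit held a replicate term, M/L included, so the p-values in the Results are unpaired. With replicate as a block, pre-existing Trim25 was lower late by -0.63 (limma adjusted p = 1.23e-08). Its slope difference was then -0.0653 per hour (limma adjusted p = 1.98e-07).

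Members and lists were chosen with earlier results of these data known. Named genes were every member, at most the 3 highest and 3 lowest called proteins of each related list, and the 3 proteins most like each member over time; the related TRIM proteins that did not pass were named after their values were seen. The 6 and 9 h window, the contrasts of late with early and of 24 h with late, the minimum of 3 pairs and the removal of single runs were added after seeing the data. The result of 1 further related list is not reported here.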

Additional observations from a re-analysis of the deposited data

Results flagged for a closer look

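The LPS effect on new protein differed between early and late times for 2 members by a test of that difference in limma's fit: Trim25 (late minus early 1.04, adjusted p = 0.0495) and Rnf213 (1.97, adjusted p = 4.53e-05), against 6.49% of 3144 groups tested. Both showed no call over 1, 2 and 3 h (-0.30 and 0.02).

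The heavy form of Usp18 entered no comparison, since no ratio was given for it. Its intensity was above 0 in LPS runs alone: 4520600 at 6 h replicate 2, 12915000 at 12 h replicate 2 and 2292700 at 24 h replicate 1, against 0 in all 20 mock runs. The LPS 12 h replicate 2 run is also the one with the highest run factor; the part of this in the signal was not tested.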

How the results depend on the processing

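Of 609 values of member results under the alternatives, 514 kept direction and side of the threshold, 61 no longer passed, 11 newly passed and 23 turned sign. Rnf213 passed in H/M and total under all alternatives run, and in new protein under all except summed intensities (adjusted p = 0.101). Without the LPS 12 h replicate 2 run, new Ube2l6 and Trim25 no longer passed (limma adjusted p = 0.0680 and 0.0765).

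New protein late called 4 members of 400 proteins. Deposited normalized ratios called 1 member, summed intensities 1 of 261 proteins, and H/L minus its 0 h value 2 of 206. Pre-existing protein called 1 member of 566 proteins; without the run factor this was 0 of 16, with normalized ratios 955 proteins and with only the 12 late runs 261. Total called 3 members of 636 proteins, with 108 proteins without the run factor and 299 by summed intensities; calls of members in total over all times fell from 10 to 6 without the factor. In H/M (4 members of 399), normalized ratios called 1 member. Loss called 1 member of 674 proteins, 0 of 7 without the factor, 6 of 453 from the M share of H/M, and 1378 proteins over 0.5 to 24 h.

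Leaving out replicates or single late runs gave 146 to 371 proteins and 1 to 4 members for new, 59 to 581 and 1 to 2 for pre-existing, 165 to 669 and 1 to 4 for total, 171 to 364 and 1 to 4 for H/M, and 207 to 471 proteins for loss. With the replicate block, counts were 446 (new), 753 (pre-existing), 780 (total), 443 (H/M) and 836 (loss); Uba7 newly passed in new protein (adjusted p = 0.00831) and H/M (0.0275), and the block changed no other call of a member in the late tests.

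Of the values that turned sign, the M-share slopes of Rnf213 and Trim30a passed (adjusted p = 7.36e-11 and 0.0407) and are not among the 11. Pre-existing Uba7 was 0.15 without the run factor, 0.0195 with each channel centred and 0.0629 with normalized ratios, and -0.0587 to 0.0272 when runs were left out. Pre-existing Rnf213 ranged from -0.0840 to 0.156 when runs were left out. Total Trim25 was 0.11 without the factor and 0.0195 with normalized ratios, and -0.121 to 0.00836 when runs were left out. Slope differences per hour were 0.0271 (no factor) and 0.00727 (0.5 to 24 h) for Uba7, -0.129 (M share) and -0.0573 (0.5 to 24 h) for Trim30a, and -0.164 (M share) and -0.000522 (0.5 to 24 h) for Rnf213, which ran from -0.0136 to 0.0170 with a replicate left out. The M share also falls by construction when new protein is added; for the other settings the cause was not tested.

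Calls higher with LPS made up 86.0% in new protein, 97.0% without the factor, 75.7% with channels centred and 24.8% with normalized ratios. These shares were 19.6%, 36.3% (centred) and 52.6% (normalized) for pre-existing, 52.0%, 90.7% (no factor) and 24.4% (normalized) for total, 92.2% and 31.2% (normalized) for H/M, and 24.0%, 42.9% (no factor) and 11.9% (M share) for loss. The median of all proteins moved to 0.20 without the factor and to -0.48 with normalized ratios in new protein. Few peptide pairs limit Ube2l6, Trim21, Trim30a and Herc6.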
